A study of Mus musculus with 6 samples.

Results

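Transcripts of 9 genes of the SR protein and Tra2 splicing factor families were examined in the peak lists of an iCLIP study of the Quaking (Qk) RNA-binding proteins. In iCLIP, ultraviolet light fixes a protein to the RNA it touches, an antibody pulls the protein down, and the attached fragments are sequenced. The genes were chosen by name, as the Ensembl IDs given for Srsf1, Srsf2, Srsf3, Srsf5, Srsf6, Srsf7, Srsf11, Tra2a and Tra2b. The rule holds no measured value, but it was set with earlier results of these data known. Every peak listed under these IDs was taken. All 9 had at least 1 peak, and they are 9 of 8233 gene IDs in the lists. They held 35 of 22488 anti-PanQk peaks and 13 of 8496 control peaks. The chromosome of the peaks was that of the named gene in a RefSeq gene table for 9 of 9.

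Both lists came from the mouse cell line C2C12, immortalised muscle precursors, kept as proliferating myoblasts and irradiated with 400 mJ. One library was made with mouse anti-PanQk, which recognises the Qk proteins together, and one with mouse anti-HA as the control. The other 4 libraries of the series, made with anti-PanQk in 72 h differentiated myotubes and with anti-Qk6 and anti-Qk7 in myoblasts, were not used. Each antibody is represented by 1 library, so no difference below has a replicate check, and none was tested between antibodies.

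SR proteins carry an RNA recognition motif and a tail rich in arginine and serine. They bind exonic enhancers and help the spliceosome to choose exons, and the Tra2 proteins, vertebrate relatives of the fly gene transformer-2, act at similar elements. Many SR genes hold a highly conserved exon whose inclusion sends the transcript to nonsense-mediated decay, through which the proteins limit their own amount. Quaking is a KH-domain protein that binds short elements around the core ACUAA and acts in splicing, stability and translation in muscle and glia.

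Most anti-PanQk peaks on these transcripts lay where the control had none, as they did across the whole list. Of the 35 peaks, 31 were overlapped by no control peak on the same strand by even 1 nt (88.6%, exact Clopper-Pearson 95% interval 73.3 to 96.8). The same share over all anti-PanQk peaks was 86.0%, so the 9 transcripts, with all their peaks together, sat at the background. Overlap depends on reads. Of peaks with 3 reads, 2 of 13 were overlapped, against 2.72% of all such peaks. With 4 to 9 reads it was 1 of 16 against 11.9%, and with 10 to 26 reads 1 of 6 against 38.5%. These classes hold too few peaks to compare. At a distance of over 100 nt from any control peak on the same strand were 26 of the 35 (74.3%, 56.7 to 87.5), against 78.2% of all. A peak that no control peak overlaps is called control-free here. Every one of the 9 transcripts had at least 1 control-free peak, and so had 92.8% of all anti-PanQk gene IDs. The interval covers counting error only, and peaks of 1 transcript share their RNA and are not independent.

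The transcripts differed from each other in the control. Srsf3, Srsf5 and Srsf11 had no control peak at all, while Srsf1, Srsf2, Srsf6, Srsf7, Tra2a and Tra2b had 2 or 3 each. The 3 of 9 stand against 52.4% of all gene IDs with an anti-PanQk peak that had no control peak. Among the 7 of the 9 transcripts with 3 or 4 anti-PanQk peaks, the 3 without a control peak compare with 524 of 1264 IDs (41.5%) with as many peaks. An ID missing from the control list had no peak that reached the list, whose weakest peak held 3 reads, which does not show that it had no reads.

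**Figure D1:**
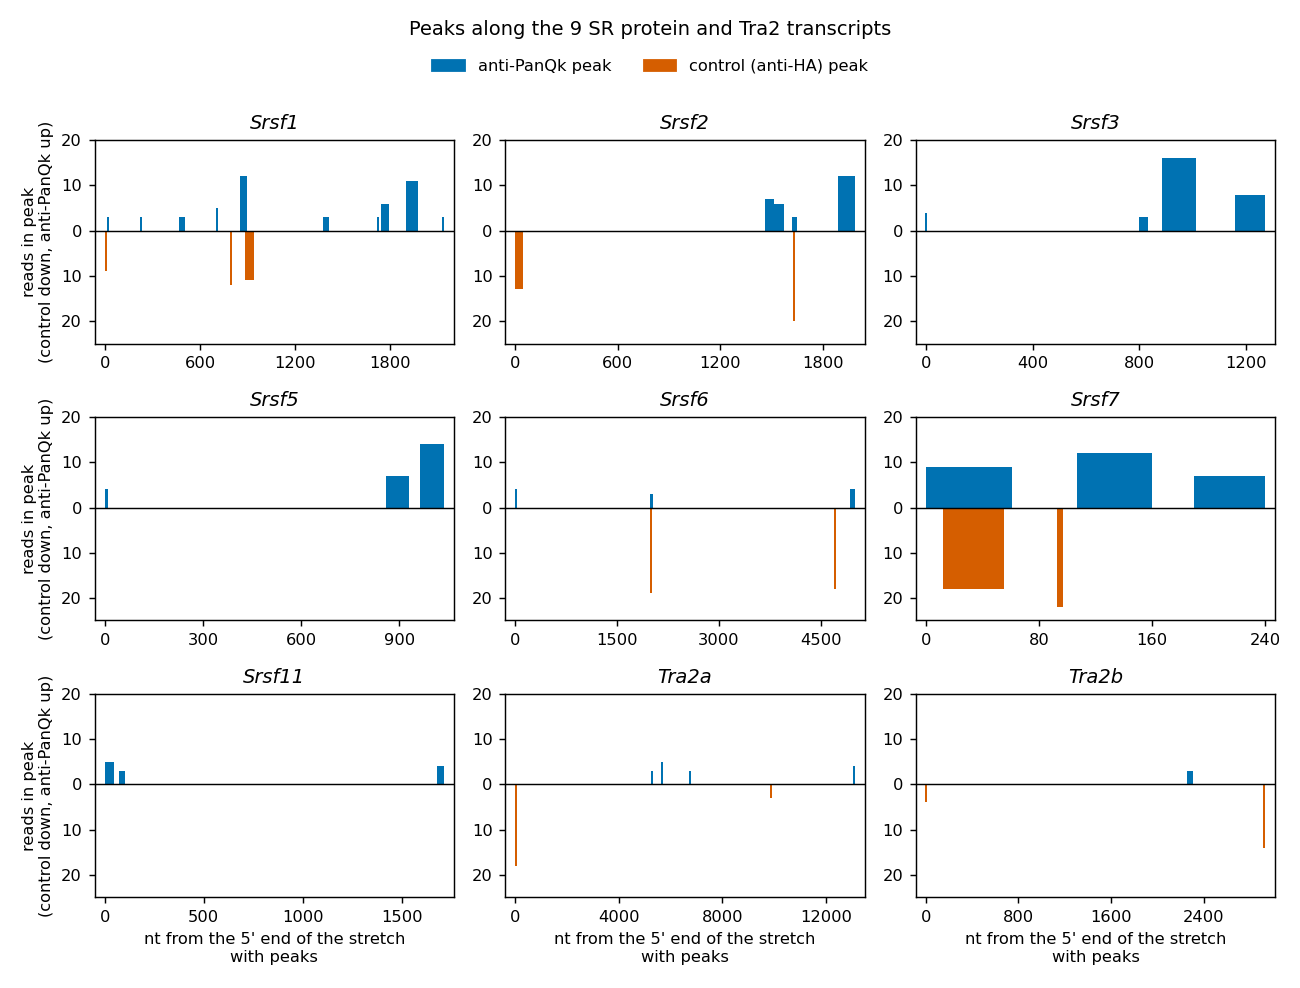
Listed peaks along each transcript, from the 5′ end of the stretch that holds peaks in either list (x axis, nt) with the reads in each peak (y axis). Blue bars above the line are anti-PanQk peaks, orange bars below it are control peaks, bar width is peak width (very narrow peaks are drawn slightly wider to be visible), and Srsf3, Srsf5 and Srsf11 have none below the line.

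Reads in peaks were taken from the deposited peak names and are not scaled, because the depth of the libraries is unknown. Listed peaks held 204258 anti-PanQk and 156166 control reads in all, so 56.7% of listed reads were anti-PanQk reads. The 9 transcripts held 205 and 181 reads, a share of 53.1% (exact interval 47.99 to 58.2). Of the 6 with peaks in both lists, 5 had more control than anti-PanQk reads, and so had 59.7% of all IDs present in both lists. The lists carry no measure of RNA level, so more transcript and more contact per transcript cannot be told apart.

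**Figure D2:**
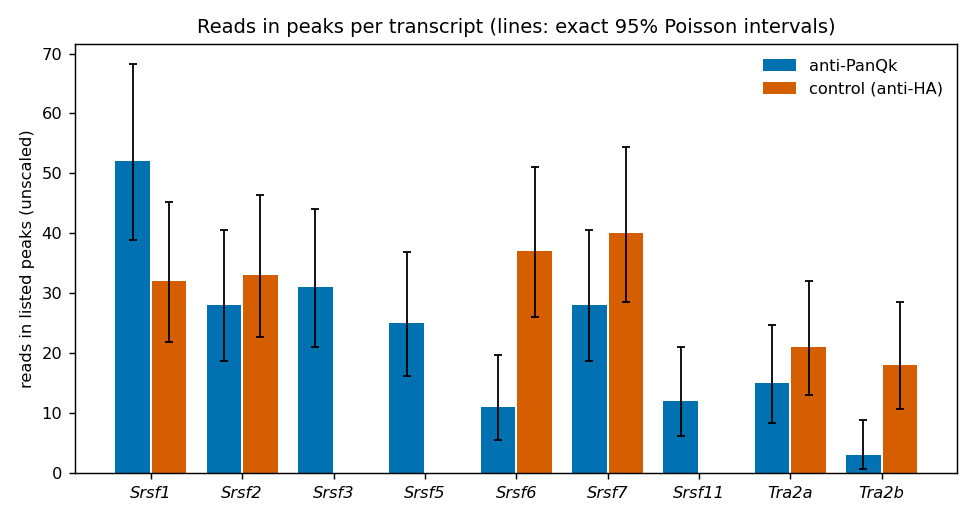
Reads summed over the listed peaks of each transcript (y axis, unscaled) in the anti-PanQk list (blue) and the control list (orange), 1 library each, with exact 95% Poisson intervals as lines. Srsf1 reaches 52 anti-PanQk against 32 control reads, Tra2b 3 against 18, and no control bar stands at Srsf3, Srsf5 or Srsf11.

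Srsf1 (ENSMUSG00000018379), whose product acts in both constitutive and alternative splicing, carried the most anti-PanQk peaks of the group. It had 10 anti-PanQk and 3 control peaks on the plus strand of chromosome 11 (mm9, 87862951 to 87865087). Only 272 of the 7135 anti-PanQk gene IDs had more than 10. From 5′ to 3′ the anti-PanQk peaks held 3, 3, 3, 5, 12, 3, 3, 6, 11 and 3 reads, and the control peaks 9, 12 and 11.

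The control peaks of Srsf1 ended 937 nt into the stretch, whereas 5 anti-PanQk peaks lay further 3′, between 1376 and 2137 nt. The strongest of these 5 held 11 reads at 87864846 to 87864922 and lay 958 nt from the nearest control peak (deposited p of 1.17e-09). Here and below, this p is the value that the authors' peak caller gave to the peak, and it follows the read number closely. The strongest anti-PanQk peak, of 12 reads at 87863800 to 87863846, was the only 1 of the 10 to be overlapped, by 11 nt of a control peak of 11 reads at 87863836 to 87863887. The centres of that pair were 41 nt apart. In reads, Srsf1 had 52 anti-PanQk and 32 control reads, a share of 61.9% (50.7 to 72.3), which includes the 56.7% of all peaks.

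Srsf5 (ENSMUSG00000021134) codes for an SR protein with a pair of RNA recognition motifs, as Srsf1 and Srsf6 do. On it were 3 anti-PanQk peaks and none from the control, on the plus strand of chromosome 12 (82050313 to 82051349). They held 4, 7 and 14 reads from 5′ to 3′. The weakest was 11 nt wide, and the other two, 70 and 72 nt wide and 35 nt apart, followed after a gap of 849 nt. The strongest lay at 82051278 to 82051349 (deposited p of 4.48e-13), and 88.9% of all anti-PanQk peaks had fewer reads. The nearest control peak on that strand was 713955 nt away, under another ID.

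Srsf3 (ENSMUSG00000071172), which codes for the smallest SR protein and a factor of mRNA export as well as splicing, had a similar layout of peaks. Its 4 anti-PanQk peaks on the plus strand of chromosome 17 (29177740 to 29179010) held 4, 3, 16 and 8 reads, and it had no control peak. A peak of 4 nt at the 5′ end of the stretch with peaks was followed after 795 nt by 3 peaks 50 and 143 nt apart. The peak of 16 reads at 29178623 to 29178753 was the strongest and, at 131 nt, the widest anti-PanQk peak of the 9 transcripts (deposited p of 2.48e-15). Its neighbour of 8 reads, 114 nt wide, had a deposited p of 1.61e-06. The nearest control peak on that strand lay 58431 nt beyond, under another ID.

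Srsf2 (ENSMUSG00000034120), whose product is a known marker of nuclear speckles, had anti-PanQk peaks only toward the 3′ side of the stretch that holds its peaks. It carried 4 anti-PanQk and 2 control peaks on the minus strand of chromosome 11 (116711631 to 116713617). The anti-PanQk peaks held 7, 6, 3 and 12 reads from 5′ to 3′ and the control peaks 13 and 20. The first 2 abut without a gap, so they need not be separate sites. The control peak of 13 reads at 116713575 to 116713617 lay alone at the 5′ end of that stretch, 1421 nt from any anti-PanQk peak.

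The control peak of 20 reads on Srsf2, 6 nt wide at 116711985 to 116711990, lay wholly inside the anti-PanQk peak of 3 reads at 116711968 to 116711999. Their centres were 3 nt apart. The strongest anti-PanQk peak, of 12 reads and 94 nt at 116711631 to 116711724, was control-free and lay 260 nt from the nearest control peak (deposited p of 9.94e-11). Over the transcript, anti-PanQk peaks held 28 and control peaks 33 reads, a share of 45.9% (33.1 to 59.2).

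Srsf7 (ENSMUSG00000024097), a close relative of Srsf3 that has a zinc knuckle beside its RNA recognition motif, was covered by both antibodies within 240 nt. On the minus strand of chromosome 17 (80600601 to 80600840) it had 3 anti-PanQk peaks of 9, 12 and 7 reads from 5′ to 3′, and 2 control peaks of 18 and 22 reads. It was the only 1 of the 9 transcripts on which every anti-PanQk peak lay within 100 nt of the control. The anti-PanQk peak of 9 reads at 80600780 to 80600840 held the whole 43 nt of the control peak of 18 reads, with centres 2 nt apart. The peak of 12 reads at 80600681 to 80600733 was control-free (deposited p of 8.21e-11) but ended 10 nt from the 4 nt control peak of 22 reads at 80600744 to 80600747, the strongest control peak of the group. Anti-PanQk peaks held 28 and control peaks 40 reads, a share of 41.2% (29.4 to 53.8).

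Srsf6 (ENSMUSG00000016921), which codes for another SR protein with a pair of RNA recognition motifs, had weak anti-PanQk and strong control peaks. On the plus strand of chromosome 2 (162757447 to 162762445), its 3 anti-PanQk peaks held 4, 3 and 4 reads and its 2 control peaks 19 and 18. The control peak of 19 reads, 8 nt wide at 162759446 to 162759453, lay inside the anti-PanQk peak of 3 reads at 162759426 to 162759476, with centres 1 nt apart. The control peak of 18 reads at 162762141 to 162762176 lay 208 nt from the nearest anti-PanQk peak. The share of anti-PanQk reads was 22.9% (12.03 to 37.3), with 11 against 37 reads. The anti-PanQk peaks farthest to either side, each of 4 reads, lay at 162757447 to 162757475 and 162762385 to 162762445.

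Srsf11 (ENSMUSG00000055436), an SR-related factor that contacts the machinery of splice site recognition, had anti-PanQk peaks alone, all weak. They held 5, 3 and 4 reads on the minus strand of chromosome 3 (157686038 to 157687750). The strongest, at 157687706 to 157687750, lay 25 nt from the next, and the third lay 1575 nt further 3′. The nearest control peak on that strand was 4079610 nt away.

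Tra2a (ENSMUSG00000029817) and Tra2b (ENSMUSG00000022858) code for a pair of closely related splicing activators, with stretches rich in arginine and serine on either side of the RNA recognition motif. Tra2a had 4 anti-PanQk peaks of 3, 5, 3 and 4 reads and 2 control peaks of 18 and 3, spread along 13105 nt of the minus strand of chromosome 6 (49199252 to 49212356). The shortest distance between a peak of one list and a peak of the other was 3087 nt. The control peak of 18 reads, at 49212314 to 49212356, marked the 5′ end of the stretch, and the strongest anti-PanQk peak lay at 49206674 to 49206722. Anti-PanQk peaks held 15 and control peaks 21 reads, a share of 41.7% (25.5 to 59.2).

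Tra2b was the only 1 of the 9 with fewer anti-PanQk than control peaks. Its anti-PanQk peak, of 3 reads, lay at 22246819 to 22246870 on the minus strand of chromosome 16. Its control peaks held 4 reads at 22249124 to 22249129 and 14 at 22246200 to 22246218, the nearer one 600 nt away. The share of anti-PanQk reads was 14.3% (3.05 to 36.3), with 3 against 18 reads. The intervals of Srsf6, Srsf7 and Tra2b lay below the 56.7% of all listed reads, and those of Srsf1, Srsf2 and Tra2a included it. That pool also holds IDs with no control peak. Over IDs present in both lists the median share was 41.9%. The intervals of Srsf2, Srsf7 and Tra2a included this median, that of Srsf1 lay above it, and those of Srsf6 and Tra2b lay below.

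Strong anti-PanQk peaks were found on 5 of the 9 transcripts, all coding for SR proteins. With p of at most 1e-06, which here took 9 or more reads, 7 of the 35 anti-PanQk peaks were left (95% interval of the share 8.44 to 36.9%), against 19.4% of all anti-PanQk peaks. Of the 7, 5 were control-free, 1 each on Srsf1, Srsf2, Srsf3, Srsf5 and Srsf7. The interval of this 71.4% (29.0 to 96.3) includes the 54.99% of the whole list (2403 of 4370). Peaks both control-free and within the limit thus made up 14.3% of the 35 peaks, against 10.7% of all anti-PanQk peaks. By transcript this is 5 of 9 against 16.2% of all anti-PanQk IDs, and 8 of the 9 had 3 or more anti-PanQk peaks, against 34.6% of all such IDs. The 16.2% is not matched for peak number, and 3258 of the 7135 IDs had only 1 anti-PanQk peak. The comparison by transcript therefore also reflects how many peaks each ID had. On Srsf6, Srsf11, Tra2a and Tra2b no anti-PanQk peak held more than 5 reads. The 6 SR protein transcripts together held 175 anti-PanQk reads in 27 peaks, and the other three 30 reads in 8 peaks. Control reads divided in the same direction, with 142 on the 6 transcripts and 39 on the other three.

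Control peaks on these transcripts were fewer and stronger one by one. Their median was 14 reads, with quartiles at 11 and 18, and that of the anti-PanQk peaks was 4 reads, with quartiles at 3 and 7. The medians of the whole lists were 15 and 4. With p of at most 1e-06 were 11 of the 13 (84.6%, 54.6 to 98.1), against 72.8% of all control peaks. An anti-PanQk peak overlapped 4 of the 13 (30.8%, 9.09 to 61.4), against 29.5% of all. All 4 overlaps joined peaks of the same gene, and in 3 of them the control peak held more reads and the centres lay within 3 nt. Over all 4141 overlapping pairs, the control peak held more reads in 47.1% and the centres lay within 3 nt in 29.3%.

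Among strong peaks, those of the anti-PanQk list were the wider ones. The 7 anti-PanQk peaks of 9 or more reads were 47 to 131 nt wide (median 72), whereas the 11 control peaks of 9 or more reads were 4 to 52 nt wide (median 19). Peaks of 9 to 22 reads had a median width of 55 nt in the whole anti-PanQk list and 22 nt in the whole control list. Under 20 nt wide were 7 of the 35 anti-PanQk peaks, none with more than 5 reads, and 8 of the 13 control peaks, with up to 22 reads. Over the whole lists, 33.9% of anti-PanQk and 47.4% of control peaks were under 20 nt wide. Neighbouring anti-PanQk peaks of a transcript were separated by a median of 198.5 nt, over 26 gaps, against 490 nt over all IDs, and 8 of the 26 gaps (30.8%) were at most 100 nt, against 33.9%. The gaps were not matched for peaks per ID or for length of the stretch with peaks, and Srsf1, with 10 peaks, gave the most.

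**Figure D3:**
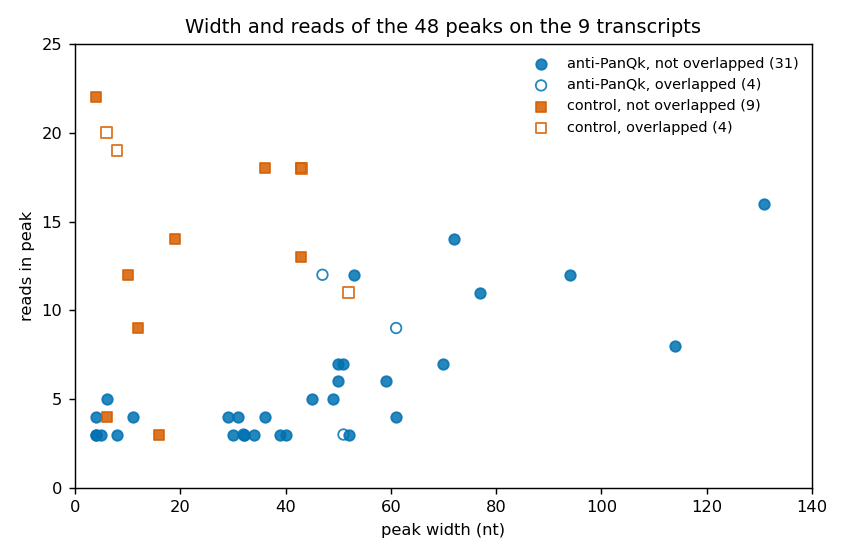
Width in nt (x axis) and reads (y axis) of the 48 peaks on the 9 transcripts, with anti-PanQk peaks as blue circles, control peaks as orange squares and overlapped peaks hollow. Anti-PanQk peaks of 9 or more reads lie at 47 nt or wider, and control peaks of 9 or more reads between 4 and 52 nt.

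Peak names carry a running number within the gene, so the highest listed number is the least number of clusters the caller formed. In the anti-PanQk list it was 16 for Srsf1 with 10 peaks listed, 10 for Tra2a with 4 and 9 for Srsf11 with 3. On Tra2b it was 1, with 1 listed. None of the 48 peaks shared its interval with another gene ID.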

How the data were processed

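iCLIP libraries were made from C2C12 cells with 1 library for each list used. Per the file headers, peaks were called with CLIPper on mm9, and the submitters' processing notes name Bowtie2 and TopHat. The sources used here give no versions. The authors deposited a p-value and a name for each peak, and the last part of the name was taken as its reads. The smallest was 3 in both lists. Depth is unknown. Overlap was counted with bedtools 2.31.1 on the same strand, with 1 nt as the minimum, in Python 3.11.15 with pandas 2.3.3, numpy 2.4.6 and scipy 1.17.1, and the count was tested on simulated peaks. Coordinates are 1-based. Entries were counted as listed. Over distinct intervals the lists hold 200878 anti-PanQk and 150162 control reads.

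Shares have exact Clopper-Pearson and sums exact Poisson 95% intervals, which cover counting error only. PCR copies may remain among the reads. The members, lists and alternatives were chosen with earlier results of these data known. All 9 members are named. Peaks are placed if strongest in their gene, control-free with p at most 1e-06, or overlapped, and some others were placed after their values were seen. The 20 further pathway genes listed by symbol, such as Srsf4 and Clk1, were not analysed here. All 20 symbols are in the RefSeq gene table (GRCm38.p6), but it gives an Ensembl ID in 0 rows, for any gene. The symbols of the 9 members came with their IDs. Sequence under peaks and exon position were likewise not analysed.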

Additional observations from a re-analysis of the deposited data

How the results depend on the processing

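Leaving out a library was not possible with 1 in each list. No paired analysis was possible because the 2 groups compared hold 1 library each. The main values were 31 control-free peaks (88.6% of 35), 3 transcripts without a control peak, and 53.1% of reads in the anti-PanQk list. With p of at most 1e-06 in both lists, 5 control-free peaks were left (71.4% of 7) and the share of reads fell to 33.1%. The limit left 7 of 35 anti-PanQk peaks (86 of 205 reads) but 11 of 13 control peaks (174 of 181 reads). The same limit gave 68.3% control-free peaks and 47.6% of reads over the whole lists, so the interval of the read share lay below the whole-list value. With both lists held to equal length, 14 of 16 peaks were control-free (87.5%, 61.7 to 98.4), against 69.2% over the whole lists. The share of reads was then 44.0% (38.5 to 49.6), with an interval below the 50.2% of the whole lists. Control peaks of 10 to 26 reads were 10 of the 13 here, against 63.2% of all control peaks. Without them, 6 transcripts had no control peak, a count not made over all IDs. All 35 peaks were then control-free (100%), against 91.4% over the whole lists. Of reads, 92.8% were anti-PanQk reads, against 75.4% over the whole lists. The interval of that read share (88.5 to 95.8) lay above the whole-list 75.4%, but the setting by its construction removes most control peaks. A stricter overlap (50% of the shorter peak, 32 control-free), a reach of 100 nt (26), either strand, merging within 50 nt (23) and leaving out intervals under several IDs kept each count within 1.5 times and each share inside its interval. Few reads limit every value: no peak here held more than 22.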

Other observations

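The width of the control peaks drew attention after their values were seen. Of the 13 control peaks on the 9 transcripts, 3 were exactly 43 nt wide, 1 each on Srsf2, Srsf7 and Tra2a. Those of Srsf7 and Tra2a also had the same 18 reads. Peaks of equal width and reads in a list had equal deposited p on these transcripts, so their shared p of 3.75e-18 is no further match. Over the whole control list 43 nt was the most frequent width, at 732 of 8496 peaks (8.62%), against 703 of 22488 anti-PanQk peaks (3.13%), where the most frequent width was 10 nt. Among peaks of 10 to 26 reads, 613 of 5370 control peaks (11.4%) and 24 of 2872 anti-PanQk peaks (0.836%) had that width. None of the 35 anti-PanQk peaks on the 9 transcripts did. The part of this width class in the results was not tested.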
